A study of Saccharomyces cerevisiae with 6 samples.

Results

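The genes described here are those of the budding yeast Saccharomyces cerevisiae that carry the names given to meiosis and sporulation mutants and genes, namely the numbered SPO, SPS, SPR, DIT, REC, HOP, ZIP, MND, IME and SMK families, with NDT80 added. Members were chosen by name alone, not by any measured value. Of 48 such genes in the reference gene table, 47 had a probe among the 6256 gene probes of the array, and SPO24 had none. The table lists the synapsis gene often called ZIP4 as SPO22 and the one called ZIP3 as CST9, so the former is a member and the latter is not.

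Meiosis in budding yeast is normally entered by a/alpha diploid cells that lack nitrogen and glucose and respire a non-fermentable carbon source. Ime1 switches on the early genes of DNA replication, recombination and chromosome pairing, Ime2 and Ndt80 then drive the meiotic divisions, and late genes build the prospore membrane and the layered spore wall around each nucleus. In cells growing on a fermentable sugar these genes are known to be held low, in large part by the repressors Ume6 and Sum1.

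RNA came from cells kept on xylose (50 g/L) for 9 h, on 3 arrays, or on glucose (50 g/L) for 3 h, on 3 arrays, in fermentation medium. Sugar and time differed together, so their parts in any difference cannot be told apart. The source label of the glucose samples reads 9 h, whereas titles, time labels and design text give 3 h, which was used. Strain, mating type and ploidy are not given in the sources used here, and it is not stated whether the numbered runs were separate cultures. Spread between samples, possibly technical, is thus all that the p-values measure.

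Levels are log2 processed signals of one-colour Agilent arrays relative to the array's 75th percentile, which lay between 1407 and 3871 signal units. They can be compared between arrays for 1 gene but not between genes, since each gene has its own probe. Replicates 1 and 2 of each sugar lay on slide 1 and replicate 3 of each on slide 2. Xylose replicates 1 and 2 were more alike than any other pair of arrays, with a median absolute difference of 0.16 over the members against 0.53 and 0.60 for the other xylose pairs. Glucose replicate 2 stood apart, with 41 genes that differed over 8-fold from all other arrays, against 0 to 3 such genes elsewhere, although no member was among the 41. LEU2 and MET17, which many laboratory strains lack, were well above background on that array alone. Whether glucose replicate 2 came from another strain was not tested, so a glucose mean or SD over 3 arrays may not describe 1 strain. Results are therefore given with and without glucose replicate 2. It was singled out after its values had been seen.

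Mating-type markers did not settle which cells the samples held. All 6 a-cell markers were well above background on all 6 arrays. Of the alpha-cell markers, SAG1, the alpha agglutinin, was so on all arrays, STE3, the a-factor receptor, on 5, MF(ALPHA)1 on 4 and MF(ALPHA)2 on 1. The 8 haploid-cell markers examined were all well above background on all 6 arrays, with 3 log2 differences above 0 and 5 below (median -0.49). Of these, RME1, a repressor of IME1 that is expressed in haploid cells, had a difference of 0.51 ± 0.31 (SE, limma adjusted p = 0.479). STE18 (0.33) and STE5 (0.07) were also positive, while GPA1 (-0.48), FAR1 (-0.50), STE4 (-0.52), FUS3 (-1.25) and HO were negative. MF(ALPHA)1 was called higher in xylose (adjusted p = 0.0465) and HO, the mating-type switching endonuclease, lower (log2 difference -1.68, adjusted p = 0.0286), by limma with Benjamini-Hochberg adjustment. MF(ALPHA)1 was well above background on 3 xylose arrays but only 1 glucose array, so its call rests on dim glucose signals. SAG1 had a difference of -0.26. All 6 a-cell markers had negative differences (median -1.38), and for 5 of them every glucose array was above every xylose array, as for MFA2 (-2.13), an a-factor gene, and STE2 (-1.91), the alpha-factor receptor. With all arrays their limma adjusted p-values lay between 0.0696 and 0.609, and 2 were called lower without glucose replicate 2 and 3 with slide as a block. The part of cell type in the results below was not tested.

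The members were dim more often than genes at large. On each array a probe passed as well above background if the scanner's flag said so for a share above 0.5 of its 7 spots. Of the 47 members, 30 (63.8%) passed this on all 6 arrays, against 90.9% of all probes. The number passing was 43, 38 and 39 on xylose replicates 1 to 3 and 36, 38 and 35 on glucose replicates 1 to 3. At least 3 of 6 arrays were required for a test, which left 42 members among 5907 genes. The other 5 were SPO74, a component of the meiotic outer plaque of the spindle pole body, SPO77, which acts in prospore membrane closure, and SPS2, a spore wall gene, on no array, and REC114 and SPO75 on 1 array each. REC114, a partner of the Spo11 complex, was seen only in xylose replicate 1. SPO75 was seen only in glucose replicate 2, with all 7 spots and a log2 level of -4.70, against -8.56 to -7.50 on the other arrays. SPR2 and SMK1 passed the filter through the xylose arrays alone, being on all 3 of them and on no glucose array, so their presence among the tested genes favours a difference.

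**Figure D1:**
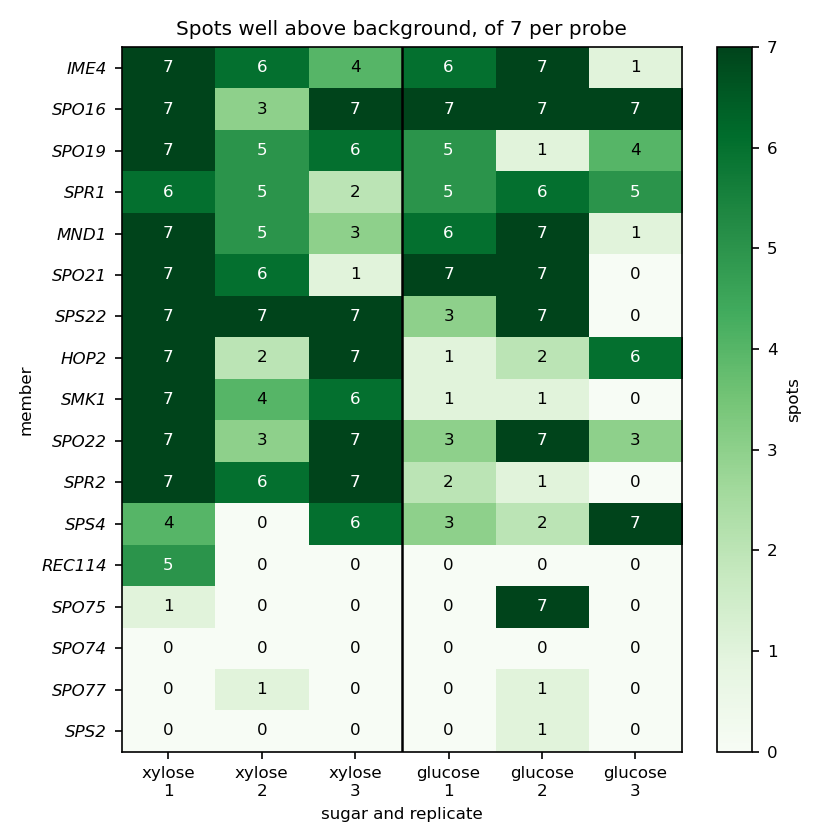
Number of spots well above background, of 7 per probe, for members that were not so on all 6 arrays; rows are members, columns are the 3 xylose and 3 glucose arrays, and colour gives the spot count. SPR2 and SMK1 pass on the xylose arrays alone, and SPO75 reaches 7 spots in glucose replicate 2 alone.

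With all 6 arrays, 1 of the 42 tested members was called at a limma adjusted p under 0.05, SPR3, which was higher in xylose. The share of calls over all genes was 2.52%, with 1.42% higher and 1.1% lower, so the members' 2.38% was near the background. At an unadjusted p under 0.05, 12 members were higher (28.6%, against 8.72% of all genes) and 1 lower (2.38%, against 7.79%). SPR2 and SMK1, which passed the filter through the xylose arrays alone, were among the 12. Among genes well above background on all 6 arrays, 8 members were higher (26.7%, against 8.66% of all genes) and 0 lower (against 7.92%). The median log2 difference, xylose minus glucose, was 0.53 over the tested members against 0.02 over all genes. It was above 0 for 31 of the 42 (73.8%), against 51.6% of all genes. Without a filter on dim probes the 47 members had a median of 0.38, and the 40 tested members other than SPR2 and SMK1 had a median of 0.44. Centring on the 7 spike-in controls moved all genes down, to a median of -0.70, and the members to -0.20. A direction for the members thus holds relative to other genes and not on that scale. The log2 spike-in level itself ranged from 11.36 to 12.61 between glucose arrays and from 11.96 to 12.34 between xylose arrays. The shift was thus not the same on every array of a sugar. Background correction by normexp moved the members' median to 1.03 and that of all genes to 0.22. Within slide 1 the members' median was 0.27, and within slide 2, with 1 array per sugar, it was 0.87.

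The arrays of the 2 sugars did not overlap for 11 of the 42 members (26.2%), against 23.5% of all genes. In 10 of these xylose was higher, against 12.6% of all genes, namely HOP2, REC102, REC107, SMK1, SPR2, SPR3, SPR6, SPS1, SPS19 and ZIP2. SMK1 and SPR2 are counted here although they passed the filter through the xylose arrays alone, which favours such a separation. SPO16 was the one with xylose lower, against 10.9% of all genes. A 95% confidence interval within a log2 difference of 1 either way was reached by 5 members (11.9%), SPO7, SPO11, SPO23, SPO71 and SPS18, against 34.4% of all genes. The members also varied more between arrays of one sugar. The median SD was 0.37 in xylose and 0.74 in glucose over the members, against 0.29 and 0.46 over all genes. Over glucose replicates 1 and 3 alone it was 0.50 for the members and 0.34 for all genes.

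The count of calls rested on the arrays used. Without glucose replicate 2, 12 of 42 members were called, 11 higher (26.2%, against 5.89% of all genes) and 1 lower (2.38%, against 5.65%). The 11 were DIT2, NDT80, REC102, REC8, SMK1, SPR2, SPR28, SPR3, SPS1, SPS19 and ZIP2, and the lower one was SPS100. SPR2 and SMK1 passed the filter through the xylose arrays alone, which favours calls for them, here and in the counts below. With the replicate number as a block, 4 members were called, all higher, namely IME1, REC102, SPR2 and SPR3, against 2.76% of all genes called higher. With slide as a block 7 were called, all higher, against 6.42% of all genes. These were HOP2, IME1, REC102, SMK1, SPR2, SPR3 and ZIP2. Quantile normalization called 3 members, REC102, SPR2 and SPR3, all higher, against 1.78% of all genes. Spike-in centring called SPS100 alone, as lower, against 2.27% of all genes. No member was called by limma when xylose replicate 1, 2 or 3 or glucose replicate 1 was left out. In these fits 12, 12, 13 and 28 of all 5907 genes were called, so the lack of calls is not particular to the members. In the same fits 8, 8, 11 and 9 members had an unadjusted p under 0.05. These are 19.0%, 19.0%, 26.2% and 21.4% of the members, against 10.2%, 9.77%, 13.9% and 13.3% of all genes.

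**Figure D2:**
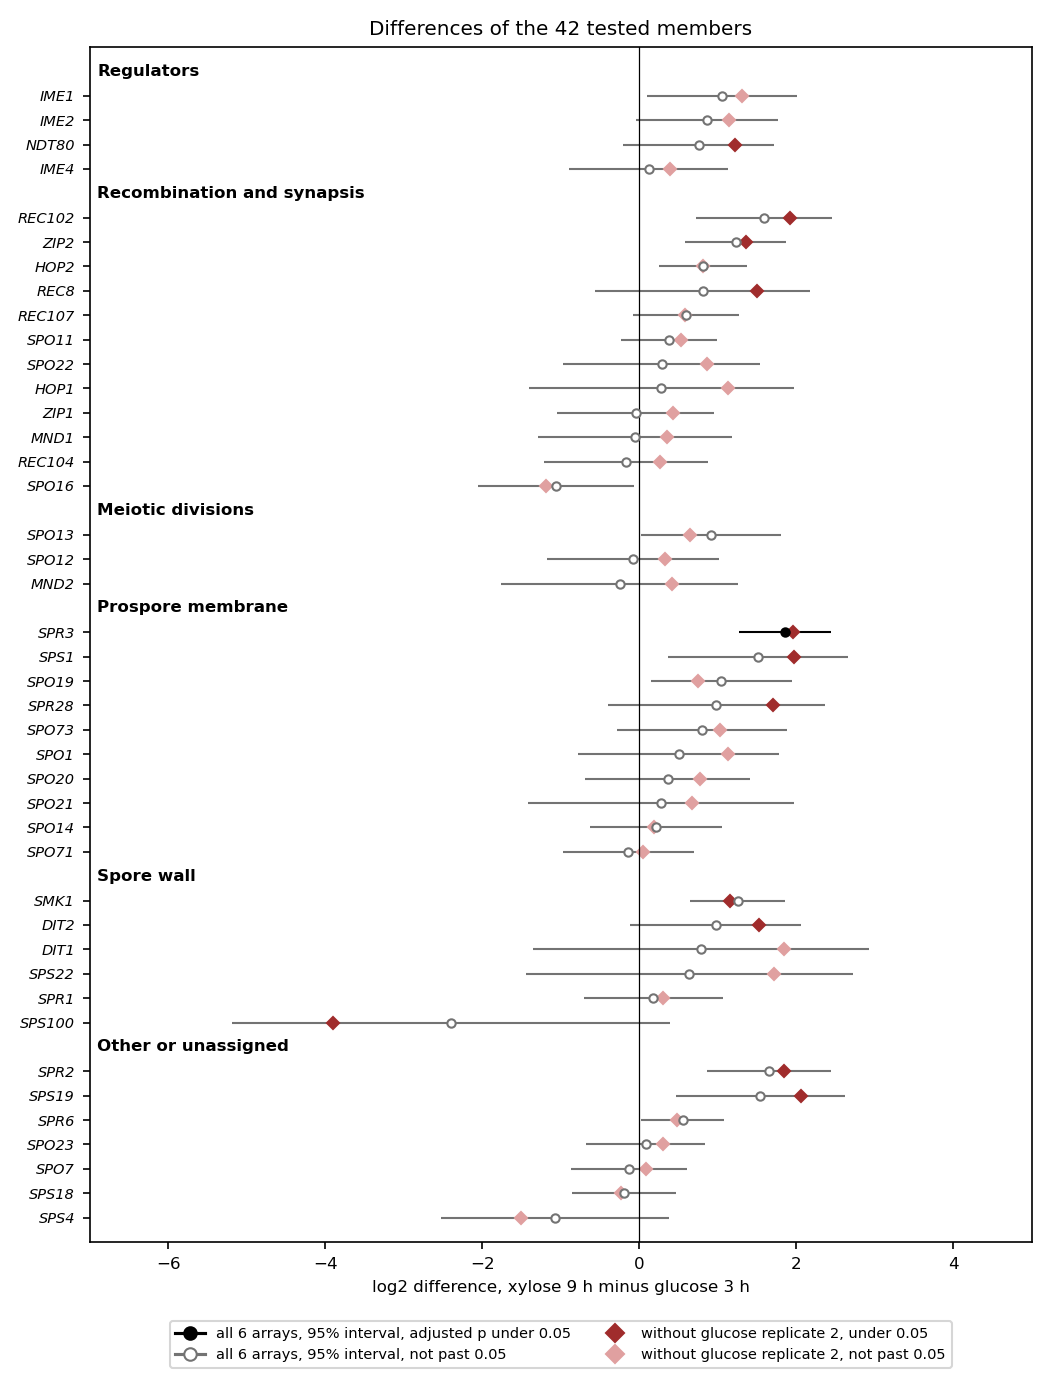
Log2 difference, xylose at 9 h minus glucose at 3 h, for the 42 tested members by role; circles and bars give the estimate from all 6 arrays with its 95% interval, filled where the adjusted p was under 0.05, and diamonds the estimate without glucose replicate 2. SPR3 is the single filled circle, and 12 diamonds are dark.

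The regulators of entry and progression had positive differences, but none was called with all arrays. IME1 (YJR094C), the transcriptional activator that starts meiosis, had log2 levels of -2.97, -2.84 and -3.76 on xylose replicates 1 to 3 and of -4.02, -3.75 and -4.96 on glucose replicates 1 to 3. Replicate 3 was the lowest in both sugars, and xylose was higher within each replicate number, although xylose replicate 3 lay just below glucose replicate 2. Its difference was 1.05 ± 0.40 (SE, n = 3 against 3), a 2.08-fold higher signal, with a limma adjusted p of 0.254. With the replicate block the adjusted p was 0.0450, and with the slide block it was 0.0199. IME2 (YJL106W), a meiosis-specific protein kinase, lay at -3.63, -3.27 and -3.98 in xylose and at -4.32, -3.92 and -5.21 in glucose. The order of its arrays was like that of IME1, with the 2 sugars touching only at xylose replicate 3 and glucose replicate 2. The difference of IME2 was 0.86 ± 0.38 (adjusted p = 0.325 by limma, 0.0800 with the replicate block).

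NDT80 (YHR124W), the activator of the middle sporulation genes, behaved differently between glucose arrays. Its levels were -1.34, -1.50 and -1.14 in xylose and -2.58, -1.17 and -2.50 in glucose. Glucose replicate 2 lay among the xylose arrays, and glucose replicates 1 and 3 lay below all of them. The difference was 0.75 ± 0.41 with all arrays (limma adjusted p = 0.430) and 1.21 without glucose replicate 2 (adjusted p = 0.0213). IME4 (YGL192W), an mRNA adenosine methyltransferase, lay at -5.22, -5.51 and -6.28 in xylose and at -5.55, -5.25 and -6.57 in glucose. Its arrays overlapped throughout, with a difference of 0.12 ± 0.43 (limma adjusted p = 0.935) and 1 glucose array not well above background.

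**Figure D3:**
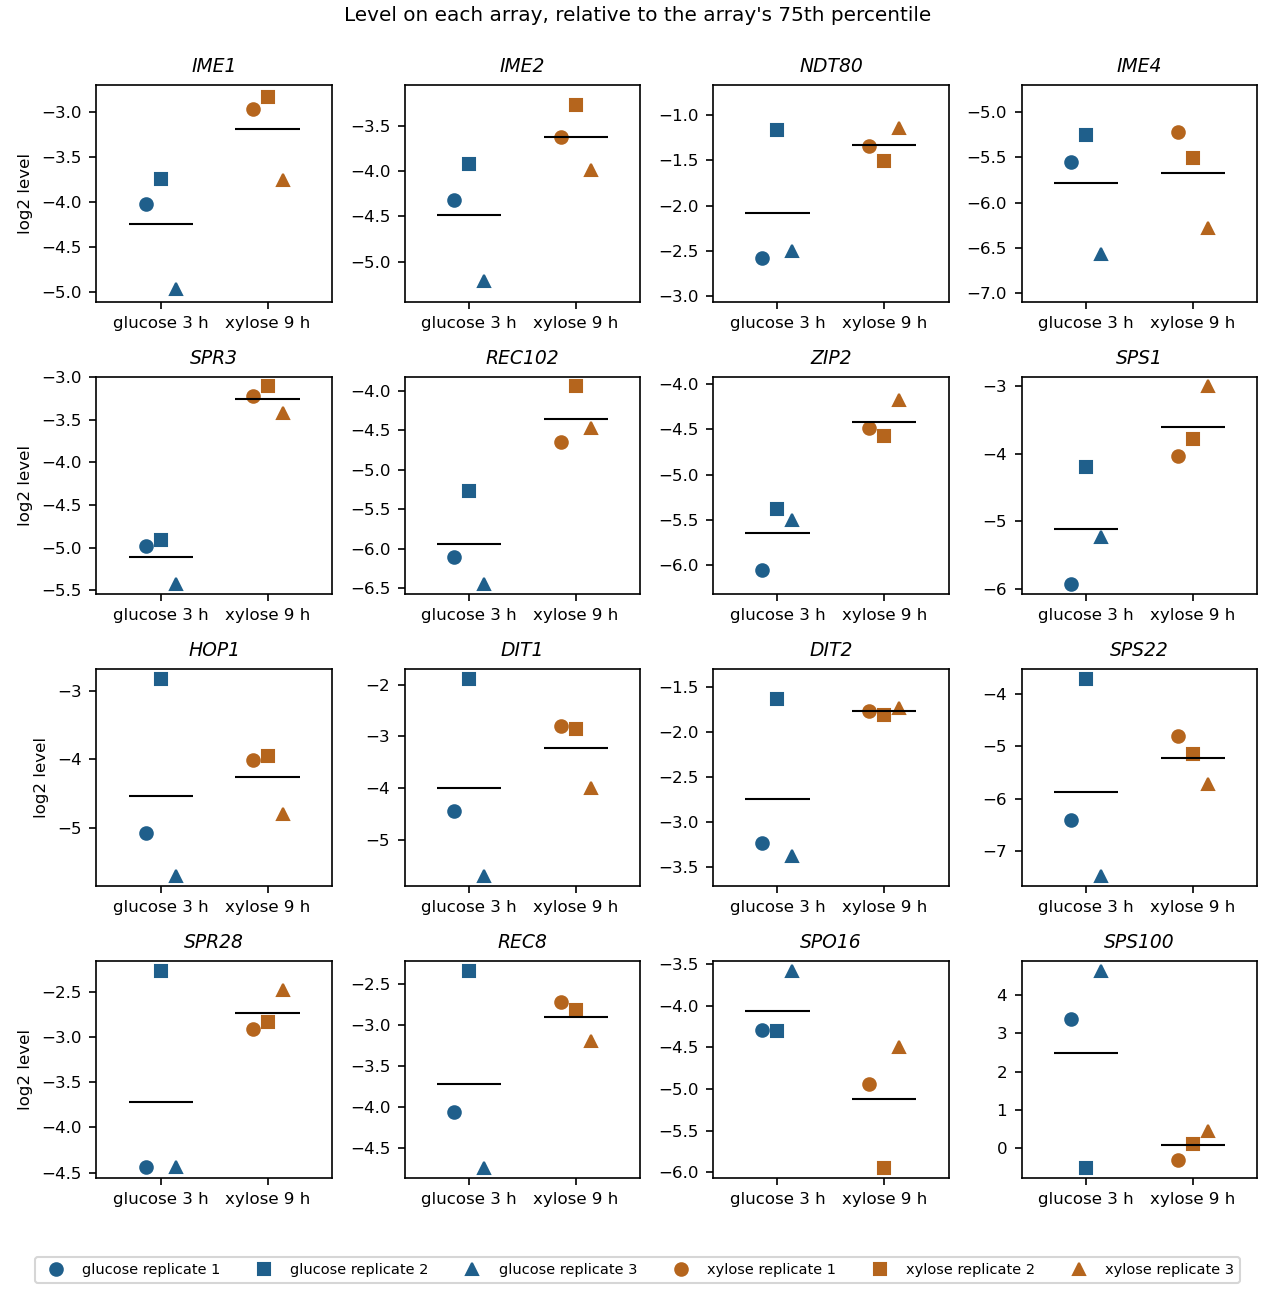
Log2 level of 16 members on each array, relative to the array's 75th percentile; symbols mark replicates 1 to 3, horizontal bars the group means, and each panel has its own vertical range. In DIT2, NDT80, REC8 and SPR28 glucose replicate 2 lies beside or above the xylose arrays while glucose replicates 1 and 3 lie lower.

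Among the 12 tested genes of recombination and synapsis, 8 had a positive difference, none was called with all arrays, and the median was 0.33. REC102 (YLR329W), a subunit of the complex in which Spo11 makes meiotic double-strand breaks, lay at -4.64, -3.95 and -4.48 in xylose and at -6.11, -5.27 and -6.45 in glucose. Each xylose array was above each glucose array. The difference was 1.59 ± 0.37, a 3.00-fold higher signal (limma adjusted p = 0.0813, and 0.0400 with the replicate block). Without glucose replicate 2 it was 1.92 (adjusted p = 0.0158).

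ZIP2 (YGL249W), which acts with Zip4 and Spo16 in synapsis initiation and crossover formation, lay at -4.49, -4.58 and -4.18 in xylose and at -6.05, -5.38 and -5.50 in glucose. The groups again did not overlap, and the difference was 1.23 ± 0.27 (limma adjusted p = 0.0711). Without glucose replicate 2 the adjusted p was 0.0309. SPO16 (YHR153C), its partner, ran the other way, with -4.93, -5.95 and -4.49 in xylose and -4.29, -4.31 and -3.58 in glucose. All glucose arrays were above all xylose arrays, by a mean log2 difference of -1.06 ± 0.42 (xylose minus glucose, limma adjusted p = 0.270). The sign of SPO16 turned under normexp, to 0.49. SPO22, which encodes Zip4, had a difference of 0.28.

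REC8 (YPR007C), the meiotic cohesin subunit, lay at -2.72, -2.81 and -3.19 in xylose and at -4.06, -2.34 and -4.74 in glucose. Glucose replicate 2 was its highest array and glucose replicates 1 and 3 its lowest. Its difference was 0.81 ± 0.58 (limma adjusted p = 0.561), and 1.49 without glucose replicate 2 (adjusted p = 0.0327). HOP2 (YGL033W), which helps Dmc1 pair homologous chromosomes, lay at -5.78, -5.85 and -5.40 in xylose and at -6.63, -6.48 and -6.35 in glucose. The groups did not overlap, but the probe was well above background on 2 xylose arrays and 1 glucose array only. The difference was 0.81 ± 0.24 (limma adjusted p = 0.146), and the gene passed the threshold only with the slide block among the alternatives run (0.0241). With outlying spots kept, the difference of HOP2 was 0.47 (limma adjusted p = 0.467), so its size depends on which spots were used. MND1, whose product works as a complex with that of HOP2, had a difference of -0.05 ± 0.52.

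SPO11, which encodes the topoisomerase-like protein that makes the breaks, had a difference of 0.38 ± 0.26, and REC104 and REC107, which encode further proteins of break formation, had -0.17 and 0.59. ZIP1, the central element of the synaptonemal complex, had a difference of -0.05. HOP1, a protein of the chromosome axis, had levels of -4.01, -3.96 and -4.81 in xylose and of -5.08, -2.82 and -5.70 in glucose. Glucose replicate 2 was thus the highest and glucose replicates 1 and 3 the lowest arrays of HOP1, as in REC8, and its difference was 0.28 ± 0.72. HOP1, with DIT1, SPS22 and SPO75, was chosen for its level in glucose replicate 2 after its values had been seen.

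The 3 members that act in the divisions did not differ past the threshold, with a median of -0.08. SPO13 (YHR014W), which keeps sister kinetochores together in meiosis I, lay at -4.39, -4.18 and -4.94 in xylose and at -4.73, -5.95 and -5.56 in glucose. Its difference of 0.91 ± 0.38 had a limma adjusted p of 0.293, and glucose replicate 1 lay above xylose replicate 3. MND2 (YIR025W), a subunit of the anaphase-promoting complex, lay at -1.56, -1.49 and -2.60 in xylose and at -1.82, -0.28 and -2.78 in glucose. SPO12 (YHR152W), a regulator of mitotic exit that is also expressed in dividing cells, lay at -3.46, -3.70 and -4.37 in xylose and at -3.72, -2.94 and -4.63 in glucose. In both genes replicate 3 was the lowest array of each sugar and glucose replicate 2 the highest array of all. Their differences were -0.25 ± 0.64 and -0.08 ± 0.47, and both became positive without glucose replicate 2, at 0.42 and 0.33.

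Genes of the prospore membrane, the double membrane that encloses each meiotic product, held the one call made with all arrays. SPR3 (YGR059W), a sporulation-specific septin that lines the growing membrane, lay at -3.23, -3.11 and -3.42 in xylose and at -4.98, -4.91 and -5.42 in glucose. The groups were separated by 1.85 ± 0.25 on the log2 scale, a 3.62-fold higher signal in xylose, with means of -3.25 ± 0.16 and -5.11 ± 0.28 (SD, n = 3 each). The limma adjusted p was 0.0175, with 7 of 7 spots well above background on every array. The difference stayed between 1.70 and 1.95 when single arrays were left out. The call was lost without xylose replicate 1 (adjusted p = 0.128), xylose replicate 2 (0.124), xylose replicate 3 (0.0700) or glucose replicate 1 (0.0668). It was also lost within slide 1 (0.139), under normexp (0.116) and on the spike-in scale, where the difference was 1.13 (0.434). With xylose replicates 1 and 2 averaged, no member was called, SPR3 included. Calls over all genes fell from 149 to 12, 12, 13 and 28 when the same single arrays were left out, in that order. Within slide 1 they fell to 0.

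SPR28 (YDR218C), the other septin made in sporulation, lay at -2.91, -2.83 and -2.48 in xylose and at -4.44, -2.28 and -4.44 in glucose. Glucose replicate 2 was its highest array, unlike in SPR3, where that array lay with the other glucose arrays. The difference of SPR28 was 0.98 ± 0.59 with all arrays (limma adjusted p = 0.475) and 1.70 without glucose replicate 2 (adjusted p = 0.0110).

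SPS1 (YDR523C), a protein kinase needed for prospore membrane and spore wall formation, lay at -4.03, -3.78 and -3.00 in xylose and at -5.93, -4.19 and -5.23 in glucose. The groups did not overlap, but glucose replicate 2 came close to xylose replicate 1. The difference was 1.51 ± 0.49 (limma adjusted p = 0.178), and 1.98 without glucose replicate 2 (adjusted p = 0.0349). SPO19 (YPL130W), a surface-anchored protein of the prospore membrane, lay at -5.30, -5.35 and -6.10 in xylose and at -6.05, -7.23 and -6.61 in glucose, where it was well above background on 2 of 3 arrays. Here glucose replicate 2 was the lowest array, and the difference was 1.04 ± 0.38 (limma adjusted p = 0.231).

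The other tested genes of this group had smaller differences. They were 0.80 for SPO73 and -0.14 for SPO71, which act in prospore membrane extension, 0.50 for SPO1, a phospholipase-like protein, and 0.21 for SPO14, phospholipase D. SPO20, a SNARE that fuses vesicles to the prospore membrane, had 0.36, and SPO21, a component of the meiotic outer plaque, had 0.28. None was called, and the median of the 10 tested genes was 0.65.

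The genes of the spore wall included the widest spread of all members. SPS100 (YHR139C), which acts late in wall maturation, lay at -0.30, 0.12 and 0.44 in xylose and at 3.36, -0.52 and 4.63 in glucose. Glucose replicates 1 and 3 were far above the xylose arrays and glucose replicate 2 was below them. The difference was -2.40 ± 1.19 with all arrays (limma adjusted p = 0.375) and -3.91 without glucose replicate 2, a 15.0-fold lower signal in xylose (adjusted p = 0.00887). On the spike-in scale limma called SPS100 with all arrays (-3.12, adjusted p = 0.00074). Without spike-in centring the same arrays gave an adjusted p of 0.375, with a glucose SD of 2.68. The spike-in call is therefore not taken as further support for a difference. Why its p-value was so much lower was not tested.

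SMK1 (YPR054W), the mitogen-activated protein kinase of spore wall assembly, lay at -5.87, -5.65 and -6.00 in xylose and at -6.73, -7.27 and -7.27 in glucose. No glucose array had it well above background, so only a bound can be given there. Against the dimmest levels well above background, SMK1 was at least 1.65-fold higher in xylose (limma adjusted p = 0.0576, and 0.0403 without glucose replicate 2).

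DIT1 and DIT2 encode the enzymes that make the dityrosine precursor of the outermost wall layer, DIT2 being a cytochrome P450. DIT2 (YDR402C) lay at -1.77, -1.82 and -1.73 in xylose and at -3.23, -1.64 and -3.37 in glucose. DIT1 (YDR403W) lay at -2.81, -2.85 and -4.00 in xylose and at -4.44, -1.88 and -5.69 in glucose. In both genes glucose replicate 2 was the highest of the 6 arrays and glucose replicates 1 and 3 were the lowest. The differences were 0.97 ± 0.46 for DIT2 and 0.79 ± 0.91 for DIT1 with all arrays. Without glucose replicate 2 they were 1.53 (limma adjusted p = 0.00887) and 1.85 (adjusted p = 0.0865).

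SPS22 (YCL048W), which acts with SPS2 in building the inner wall layers, showed the same order. Its levels were -4.81, -5.15 and -5.72 in xylose and -6.41, -3.72 and -7.47 in glucose, and it was well above background on 1 glucose array, replicate 2. With all arrays the difference was 0.64 ± 0.88 (limma adjusted p = 0.794). Without that array SPS22 was at least 2.51-fold higher in xylose (adjusted p = 0.0575). It was then well above background on xylose arrays alone, which favours a difference. The p-value comes from the fit and not from the bound, and rests on glucose signals that were not well above background. SPR1, a glucanase made in sporulation, had a difference of 0.18.

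The remaining 7 members are of other or unassigned function, and their median was 0.08. SPR2 (YOR214C), a putative spore wall protein, lay at -5.84, -5.57 and -6.10 in xylose and at -7.24, -7.12 and -8.13 in glucose. With no glucose array well above background, SPR2 was at least 1.65-fold higher in xylose. Its limma adjusted p was 0.0552, with 0.0370 in the replicate block and 0.0271 without glucose replicate 2. These p-values come from the fit and not from the bound, and rest on glucose signals that were not well above background. SPS19 (YNL202W), a peroxisomal enzyme of unsaturated fatty acid oxidation, lay at 0.90, 0.88 and 1.26 in xylose and at -1.25, 0.51 and -0.83 in glucose. Glucose replicate 2 again lay nearest to the xylose arrays, and the groups did not overlap. The difference of SPS19 was 1.54 ± 0.46 (limma adjusted p = 0.148), and 2.06 without glucose replicate 2, a 4.16-fold higher signal (adjusted p = 0.00907).

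SPS4 (YOR313C) lay at -6.71, -7.51 and -5.95 in xylose and at -6.02, -6.51 and -4.41 in glucose. Its probe was well above background on 3 arrays, and the difference was -1.08 ± 0.62 (limma adjusted p = 0.452). SPR6 varied little within a sugar, with levels of 0.24 to 0.36 in xylose and -0.41 to -0.05 in glucose. Its difference of 0.55 ± 0.22 had a limma adjusted p of 0.282. SPO7, a subunit of a nuclear membrane phosphatase, SPO23 and SPS18 had differences of -0.13, 0.08 and -0.20.

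Glucose replicate 2 differed from the other glucose arrays in many members at once. It was above both of them in 29 of the 42 tested members (69.0%), against 38.8% of all genes, and below both in 7 (16.7%), against 37.2%. It exceeded their mean by more than 1 on the log2 scale in 19 members (45.2%), against 14.1% of all genes. The median excess was 0.78 over the members and 0.02 over all genes, beside a median of 0.76 for xylose over the same 2 glucose arrays. The excess was 3.22 for SPS22, 3.18 for DIT1 and 2.57 for HOP1, while SPS100 lay lower by a log2 difference of -4.51. In 13 members glucose replicates 1 and 3 were below every xylose array and glucose replicate 2 was above at least 1 of them (31.0%, against 9.26% of all genes). These were DIT1, DIT2, HOP1, IME1, IME2, NDT80, REC8, SPO1, SPO11, SPO22, SPR28, SPS22 and ZIP1.

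A second order ran across both sugars. Replicate 3, the arrays of slide 2, was the lowest in xylose and in glucose for 24 members (57.1%), against 37.6% of all genes, among them IME1, IME2, IME4, DIT1 and HOP1. It was the highest in both for 6 members (14.3%, against 28.1%), which were HOP2, REC107, SPO16, SPR6, SPS100 and SPS4. Slide and replicate number cannot be told apart for these arrays.

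**Figure D4:**
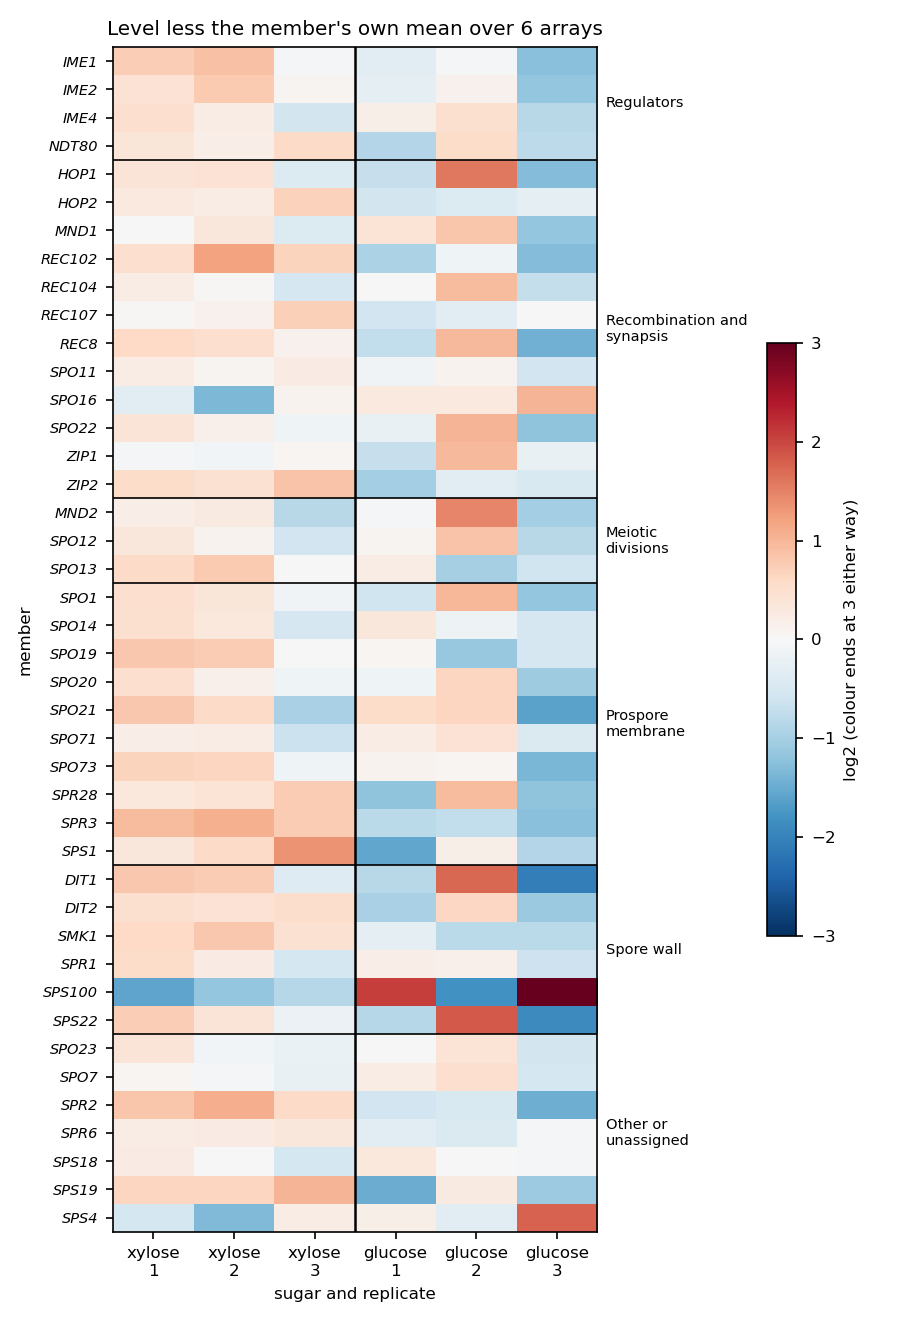
Level of each tested member less its own mean over the 6 arrays, with columns for the xylose and glucose replicates, rows grouped by role, and colour as a log2 difference that ends at 3 either way. Glucose replicate 2 is above both other glucose arrays in 29 of the 42 members, and SPS100 shows the opposite order.

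Meiosis and sporulation genes that carry other names had a smaller median difference. Of 77 such genes with a probe, 68 were tested, and their median difference was 0.11 with 40 above 0. With all arrays 1 was called, lower in xylose (1.47%, against 1.1% of all genes), and none higher, while at an unadjusted p under 0.05, 2 were higher (2.94%, against 8.72% of all genes) and 5 lower (7.35%, against 7.79%). Without glucose replicate 2, 6 were called higher (8.82%, against 5.89% of all genes), namely CSM4, DMC1, DTR1, MPC54, RIM4 and RRT12. On those arrays CSM4 and DTR1 were well above background in xylose alone, which favours a call. On the same arrays 5 were lower (7.35%, against 5.65%), namely CLB1, CLB6, GSC2, NDJ1 and RRT8. The medians were 0.18 over 16 regulators of entry, -0.03 over 14 recombination genes, 0.04 over 10 division genes and -0.04 over 28 genes of spore formation. The repressor genes UME6 and SUM1 had differences of 0.32 and 0.16, and DMC1, the meiotic recombinase, had 0.92, none of them called with all arrays. The difference between these genes and the name families was not tested.

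The call was NDJ1 (YOL104C), a telomere protein that gathers chromosome ends in meiotic prophase. It lay at -4.01, -4.17 and -2.96 in xylose and at -1.95, -0.21 and -0.83 in glucose, with no overlap. The difference was -2.72 ± 0.52 (limma adjusted p = 0.0465, and 0.0574 with the replicate block, where CLB6 was called in its place at 0.0489). NDJ1 was also lost when any array other than glucose replicate 2 was left out. CLB6, an S-phase cyclin, had a difference of -2.22 (limma adjusted p = 0.0900). CLB1, a cyclin of mitosis and meiosis, had -1.54, and SAE3, a cofactor of Dmc1, had -1.64.

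The order seen in 13 members was found in 18 of these 68 genes (26.5%, against 31.0% of the members and 9.26% of all genes). In it glucose replicates 1 and 3 were below every xylose array and glucose replicate 2 above at least 1. Glucose replicate 2 was above both other glucose arrays in 35 of the 68 (51.5%, against 38.8% of all genes). It was below both in 17 (25.0%, against 37.2%). RIM4, an RNA-binding regulator of meiotic translation, lay between -2.23 and -1.72 in xylose and at -4.59, -1.58 and -4.21 in glucose. RRT12, a protease-like protein of the spore wall, lay between -2.53 and -2.20 in xylose and at -5.24, -1.01 and -4.95 in glucose. CSM4, which acts in telomere-led chromosome movement, was well above background on 1 glucose array, replicate 2. The differences of RIM4, RRT12 and CSM4 were 1.44, 1.34 and 1.50 with all arrays. Without glucose replicate 2 those of RIM4 and RRT12 were 2.38 and 2.70, with limma adjusted p-values of 0.00730 and 0.00387. CSM4, then dim on both glucose arrays, was at least 2.47-fold higher in xylose (adjusted p = 0.00934). DTR1, the dityrosine transporter of the prospore membrane, was likewise seen in glucose replicate 2 alone among the glucose arrays, and without it was at least 3.26-fold higher in xylose (adjusted p = 0.00840). Without glucose replicate 2, CSM4 and DTR1 were well above background on xylose arrays alone, which favours a call. Their p-values then rest on glucose signals that were not well above background. MPC54, a component of the meiotic outer plaque, had 1.11 without that array (0.0447), RRT8, which acts in spore wall assembly, had -0.92 (0.0397), and GSC2, a glucan synthase subunit, had -1.01 (0.0490). The glucan-remodelling enzyme gene GAS2 had a difference of -1.16, the outer spore wall gene OSW2 had -1.05 and the monopolin gene MAM1 had -1.05, and none of these 3 was called with all arrays. With slide as a block GAS2 was called lower in xylose (limma adjusted p = 0.0377), as were NDJ1 and RRT8. These 3 are 4.41% of the 68, and 311 of 5907 genes were called lower. UME1, a component of a histone deacetylase complex, was called higher (0.74, limma adjusted p = 0.0457). It was the 1 gene called so (1.47%, against 6.42% of all genes). On the spike-in scale CLB1, CLB6, NDJ1 and SAE3 were called lower (5.88%, against 2.27% of all genes).

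**Figure D5:**
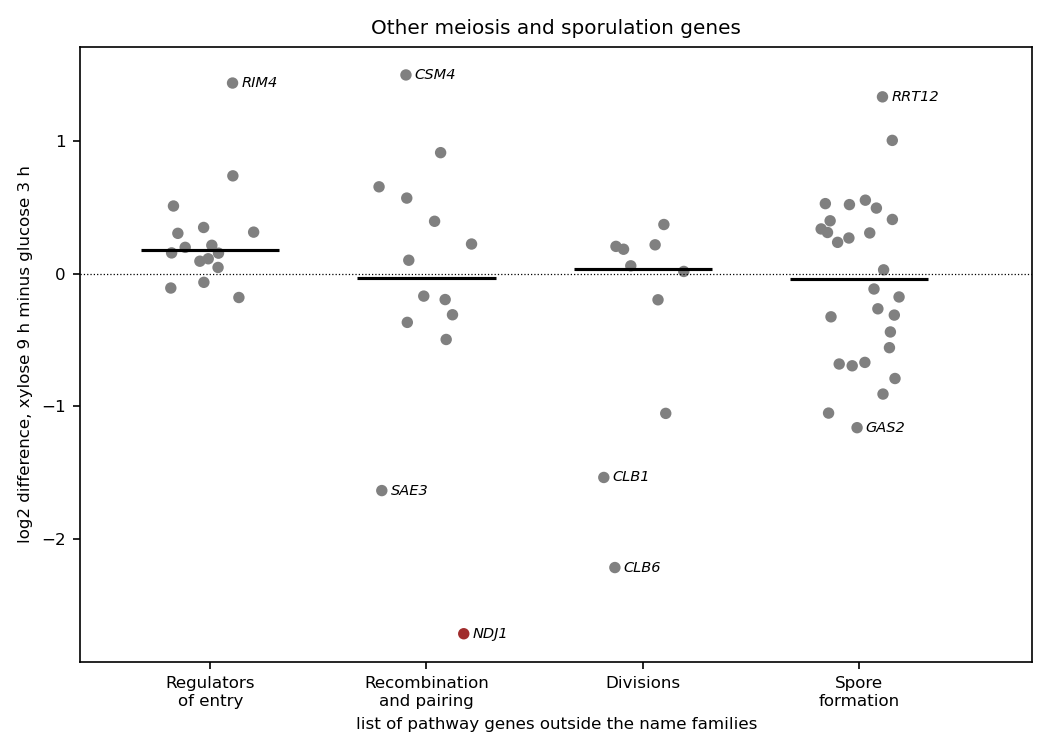
Log2 difference, xylose at 9 h minus glucose at 3 h, of 68 tested meiosis and sporulation genes outside the name families, in 4 lists; points are genes and bars are list medians. The medians lie between -0.04 and 0.18, and NDJ1 is the one gene called with all arrays.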

How the data were processed

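The authors extracted spot intensity from the scans, per the file headers and the submitters' notes on processing, using Agilent Feature Extraction 10.1.1.1. The deposited intensity is a processed signal, already background-subtracted. A deposited table of log2 values equalled the scanner values less 1 constant per array, with 0 of 37535 values beyond 0.001. That constant was within 0.0156 of the 75th percentile, so the table's scale, direction and absence of gene centring are known. Its column medians lay between -1.41 and -1.23.

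Control spots were left out. Of the 43792 other spots per array, 727 to 1722 were non-uniform or outlying and were left out too, and none was saturated. Log2 signals less the array's 75th percentile were averaged over spots, and probes well above background on 3 of 6 arrays were tested. Between 92.3% and 95.6% of probes were well above background per array, and 6 arrays limit the precision. Names came from the RefSeq table of the reference assembly by systematic name, which matched 5756 of 6256 probes. The fit of sugar alone used limma (version 3.58.1, R 4.3.3), with moderated two-sided tests from eBayes. P-values were adjusted by Benjamini-Hochberg across every tested gene, and a gene was called under 0.05. The fit was first tested on simulated data. A gene dim on all arrays of a group has a bound, the bright group's mean against the mean, per dim array, of the higher of the lowest level well above background and its own.

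Replicate numbers come from the titles. Deviations of same-numbered xylose and glucose arrays from their group means correlated at 0.40, 0.22 and 0.71 across genes, each above 0.1, so the numbers were taken to pair the arrays, and the blocked p is given where it changes a call. Unlike numbers within slide 1 correlated as much, at 0.41 and 0.25, and those across slides at -0.62 to -0.27, so the values separate the slides and not replicate 1 from 2. Members and gene lists were chosen with earlier results of these data known. Values on all arrays were given for the 4 regulators, for members called with all arrays, a block or 1 array left out, and for the 3 members of largest absolute difference per role. Of the other pathway genes, the one called with all arrays and the 10 of largest absolute difference were named. The repressors, DMC1 and genes called only under an alternative were added after their values were seen. The alternatives were other centrings, quantile normalization, normexp on the median signal with an offset of 50, other filters, the deposited table, the blocks, single slides, single arrays left out, and xylose replicates 1 and 2 averaged. Promoter motifs were not analysed here.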

Additional observations from a re-analysis of the deposited data

How the results depend on the processing

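Of 786 values of the 42 tested members under the alternatives, 691 kept their direction and side of the threshold, 24 passed it newly, 8 no longer passed it, 60 changed sign, in 24 members, and 3 of values without a test moved. The cause was not tested. With the replicate block, which assumes that same-numbered arrays are pairs, 4 members, 310 genes and 1 other pathway gene were called, against 1, 149 and 1 without it. With slide as a block the counts were 7, 690 and 4. Leaving out single arrays gave 0 to 12 members, 12 to 682 genes and 0 to 11 other pathway genes. Glucose replicate 2 gave the highest counts, and each of the xylose arrays gave 12 or 13 genes. Averaging xylose replicates 1 and 2 gave 0, 12 and 0, and within slide 1 limma called 0, 0 and 0, with 11 members, 987 genes and 6 other pathway genes at an unadjusted p under 0.05. Normexp gave 0, 53 and 0. Members called were 2 with median centring, beside 158 of 5907 genes, and 3 with quantile normalization, beside 191 genes. Other pathway genes called were 0 with median centring, 4 with spike-in centring, beside 159 genes, and 0 without a filter, beside 134 of 6256 genes.

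Signs turned under normexp for SPO7 (0.30), SPO71 (0.078), ZIP1 (0.77), MND1 (1.15), SPO12 (0.52), SPO16 (0.49), REC104 (0.82), SPS18 (0.98) and SPS4 (0.97). On the spike-in scale they turned for SPO23 (-0.64), SPS22 (-0.082), SPR6 (-0.17), IME4 (-0.60), SPO11 (-0.34), HOP1 (-0.44), SPO22 (-0.44), REC107 (-0.13), SPO14 (-0.51), SPO20 (-0.36), SPO1 (-0.22), SPO21 (-0.44) and SPR1 (-0.54). Within slide 1 they turned for SPO23 (-0.058), HOP1 (-0.032) and SPO22 (-0.12). Within slide 2 they turned for SPO7 (0.30), ZIP1 (0.28), MND1 (0.77), SPO12 (0.25), REC104 (0.20) and MND2 (0.19), while HOP2 (0.95), SPO11 (0.84) and SPS18 (-0.48) moved beyond the spread. With xylose replicates 1 and 2 averaged, IME4 was at -0.035 and SPO21 at -0.0014.

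Leaving out single arrays, the differences ranged from -0.43 to 0.083 for SPO7, -0.17 to 0.30 for SPO23, -0.16 to 1.71 for SPS22, -0.40 to 0.15 for SPO71, -0.40 to 0.43 for ZIP1, -0.058 to 1.85 for DIT1 and -0.65 to 0.35 for MND1. They ranged from -0.27 to 0.42 for IME4, -0.51 to 0.33 for SPO12, -0.56 to 0.27 for REC104, -0.31 to 1.13 for HOP1, -0.25 to 0.86 for SPO22 and -0.83 to 0.42 for MND2. For SPO20 they ranged from -0.079 to 0.78, for SPS18 from -0.37 to 0.018, for SPO21 from -0.46 to 0.83 and for SPR1 from -0.094 to 0.49. Members not well above background on all arrays are limited by dim signal.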

Other observations

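Genes whose older names belong to the same families, but whose standard name differs, were examined after the values of the members were seen. CTT1, the cytosolic catalase once named SPS101, was called higher in xylose, with a log2 difference of 2.04 ± 0.30 and no overlap of the sugars (limma adjusted p = 0.0221). Its levels were 3.05, 3.25 and 2.70 in xylose and 1.36, 1.01 and 0.51 in glucose. The others were not called. CST9, the synapsis gene also called ZIP3, had a difference of 0.24, and AMA1, an activator of the anaphase-promoting complex in meiosis, had 0.06. SSP1, a coat protein of the prospore membrane, had -0.32, CHS3, the chitin synthase of the spore wall, had -0.69, and RPD3, the histone deacetylase that acts with Ume6, had 0.10.

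Some members are neighbours on the reference. DIT1 and DIT2, which are transcribed divergently, shared the order of their glucose arrays. SPO22 and HOP1, also divergent, had differences of 0.28 and 0.28. SPS18 and SPS19, divergent too, had differences of -0.20 and 1.54. SPS1 and SPS2, in tandem, had a difference of 1.51 and no array well above background, respectively.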
